A study of Homo sapiens with 9 samples.

Results

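CEBPB, GATA4 and NFKB1 encode transcription factors that switch on the secretory programme of senescent cells, the senescence-associated secretory phenotype (SASP). They were picked by name and position, 3 of the 20175 protein-coding genes in the annotation, and not by their contacts. In hg19, CEBPB occupies chr20:48807367-48809205, GATA4 chr8:11534468-11617511 and NFKB1 chr4:103422487-103538459, all on the plus strand. Around each start site the 40 kb Hi-C bins up to 1 Mb away were read. These were 153 of the 77404 bins of the genome, and 146 of them held values in all 5 Hi-C libraries, 51 around CEBPB, 45 around GATA4 and 50 around NFKB1. Capture Hi-C, which enriches ligation products that touch chosen regions, held values for 82 of the 10 kb bins around CEBPB and for 0 around GATA4 and NFKB1, which were not captured.

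All libraries came from IMR90, a line of human diploid lung fibroblasts, and all carried the ER:HRAS(G12V) vector, in which oncogenic RAS is fused to the oestrogen receptor and stays inactive until 4-hydroxytamoxifen (4OHT) is given. The growing cells received no tamoxifen and gave 3 Hi-C and 2 capture Hi-C libraries. Growing Hi-C replicate 3 also carried the MSCV Vector. The cells in RAS-induced senescence (RIS) had received 100 nM 4OHT for 6 days and gave 2 Hi-C and 2 capture Hi-C libraries. The 4OHT itself was given to the RIS cells alone, so an effect of the drug and an effect of RAS cannot be told apart.

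The 3 factors act at different levels of the programme. GATA4 is removed by selective autophagy in growing cells and accumulates in senescence, where it lies upstream of NF-κB. NFKB1 encodes the precursor of a DNA-binding subunit of NF-κB, the main activator of inflammatory cytokine genes, and C/EBPβ, the product of the single-exon gene CEBPB, acts beside NF-κB at cytokine promoters. In Hi-C maps a gene lies within a domain of raised contact whose borders show as minima of the insulation score, and active, gene-rich chromatin falls in the A compartment, here the positive side of the compartment score. RNA was not analysed here, so nothing below concerns expression.

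Hi-C libraries held 109967509 to 180775315 contacts and capture libraries 70017493 to 172765385, and in both assays each RIS library held fewer contacts than each growing library. Contacts between chromosomes made up 7.61% to 8.21% of the balanced contacts in growing Hi-C libraries and 9.89% to 10.2% in RIS libraries. The share of dangling ends in the alignment summary of the study also separated the conditions, and its part cannot be told apart from that of RIS. Libraries with many duplicates were growing replicate 3 and RIS replicate 2, so this property crossed the groups. With 3 libraries against 2, the 10 possible assignments of an exact permutation test limit its two-sided p to 0.1 or more.

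The assay reads only sites cut by HindIII, and this set the resolution at CEBPB. The start site of CEBPB lies in a HindIII fragment of 16423 bases, 8280 bases from its upstream end and 8143 bases from its downstream end, against 5238 bases for the fragment with the start of NFKB1. The 40 kb promoter bin of CEBPB held 4 HindIII sites, against a median of 9 over its window, and the promoter bins of GATA4 and NFKB1 held 7 and 13. The 10 kb bin with the start of CEBPB held no site and no capture value. Contacts were therefore read in the 10 kb bins with the fragment ends on either side, which also hold sequence outside the fragment. The sites at these ends are shown because all capture values below, other than those of the whole captured region, were read in the bins that hold them. The HindIII site is in capitals (GRCh37, plus strand, chr20:48799074-48799103 and chr20:48815497-48815526).
CEBPB upstream end: gacgttacctcacAAGCTTttgctattgca
CEBPB downstream end: taaggttgttgtgAAGCTTaagtgagataa

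The promoter of NFKB1 carries a match to the binding motif of its own product. The 250 bases before its start site are shown for this match, GGGAATTTCC, in capitals (GRCh37, plus strand, chr4:103422266-103422515).
NFKB1 promoter: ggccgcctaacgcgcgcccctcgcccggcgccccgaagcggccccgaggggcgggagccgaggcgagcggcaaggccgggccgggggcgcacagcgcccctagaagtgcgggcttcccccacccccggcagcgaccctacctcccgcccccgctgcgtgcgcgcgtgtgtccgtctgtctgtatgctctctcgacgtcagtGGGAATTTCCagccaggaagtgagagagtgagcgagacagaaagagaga
The match begins 49 bases before the start site. The strict NF-κB pattern it belongs to, with fixed bases at both ends and an open pair in the centre, occurred on either strand in 1.61% of 35116 promoter windows of the RefSeq promoter table (GRCh38.p14), which held CEBPB and NFKB1 and 0 windows of GATA4. CEBPB had 0 matches to it. A looser NF-κB pattern, with the whole centre open, occurred in 58.7% of windows, 5 times at CEBPB and 3 times at NFKB1, where 1 match overlapped the first. The C/EBP patterns TTGCNNCAA (1.98% of windows) and TTGCGCAA (0.151%), the GATA pattern AGATAA (10.3%) and both forms searched of the CTCF core (0.0513% and 0.0769%) had 0 matches in the windows of CEBPB and NFKB1.

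GATA4 lay inside a broad domain in maps with a 520 kb window. Its insulation score and its compartment score rose in RIS, and contact within its domain was higher in both RIS libraries than in every growing library. The bin with its principal start site (position 11561711) is chr8:11560001-11600000. Its insulation score, the log2 of the mean contact across the bin in a 520 kb window relative to the chromosome, was 0.77, 0.77 and 0.74 in the growing libraries (given here and below in the order of their replicate numbers), compared with 0.90 and 0.87 in the RIS libraries. There was no overlap, and the mean rose by 0.13 (SE 0.03, limma adjusted p = 0.00841). Such calls were common. Of 67666 bins tested, 53.3% were called and 25.0% were called higher, so that the calls at all 3 genes were a usual outcome over the genome. The change at GATA4 stood at the 81.8th percentile of all bins. With a 280 kb window it was 0.07 (adjusted p = 0.163), and without RIS replicate 1 it was 0.11 (adjusted p = 0.0514).

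The compartment score of the 120 kb bin with the GATA4 start, in SD units of its chromosome, was 0.27, 0.45 and 0.44 in growing libraries and 0.67 and 0.58 in RIS libraries. The gene was thus on the A side in all 5 libraries, and the groups did not overlap. The rise of 0.23 (SE 0.07) passed the test (limma adjusted p = 0.0361), as did 43.5% of all bins. When each library was shifted to an equal share of positive bins, the rise was 0.03 (adjusted p = 0.779), so the call depended on where the zero of the score was set. It was also lost without growing replicate 1 or 2 or either RIS library (adjusted p 0.0515 to 0.222). At 200 kb resolution the scores were 0.06, 0.10 and 0.21 in growing and 0.54 and 0.42 in RIS libraries. The bins 240 kb before and 120 kb after the GATA4 bin had the highest scores of its window and were lower in both RIS libraries. They stood at 1.28, 1.39 and 1.45 in growing and 1.15 and 1.01 in RIS libraries, and at 1.31, 1.35 and 1.42 and then 1.12 and 1.08. Most other bins of the window were higher in both RIS libraries than in every growing library, and the groups overlapped 600 kb after. The bin 840 kb before went from -0.27, -0.15 and -0.20 to 0.27 and 0.29. That 120 kb before went from 0.17, 0.15 and 0.33 to 0.56 and 0.48. The rise was thus not particular to the GATA4 bin.

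The domain around GATA4 in growing cells spanned chr8:11200001-12560000. Its mean contact, as log2 of observed over expected at the same distance, was 0.13, 0.12 and 0.11 in the growing libraries, compared with 0.29 and 0.32 in RIS. There was no overlap, and the difference of 0.19 had the smallest p that the exact permutation test allows (p = 0.1). With borders from a 280 kb window it was 0.06, over another domain (chr8:11560001-12440000) whose left border was a shallow minimum in the GATA4 promoter bin itself (prominence 0.117). The promoter bin with the rest of the domain went from 0.19, 0.34 and 0.50 to 0.42 and 0.61, and here the groups overlapped (exact permutation p = 0.4). The left border, 360 kb upstream, was found in both conditions. The right border, 960 kb downstream, was a shallow minimum of the growing map (prominence 0.171) and was not found in the RIS map. The RIS map also held a shallow minimum 160 kb upstream of the promoter bin (prominence 0.133). Scores of the growing libraries dipped there too, at 0.31, 0.26 and 0.24, against 0.39, 0.34 and 0.36 in the bin 200 kb upstream. With a 280 kb window this minimum was found in both maps (prominence 0.360 in growing and 0.429 in RIS). Contact across the right border was -1.38, -1.25 and -1.25 in growing libraries, against -1.56 and -1.63 in RIS libraries. With borders from a 280 kb window the difference across the right border turned from -0.30 to 0.11, and 6 bins of the window held no values. No bin 200 to 880 kb downstream held an insulation score with the 520 kb window, so no border could be found there. The right extent of the domain was therefore poorly defined, and the left extent depended on the window. The minimum on the left was itself prominent. It stood at 0.931 in the growing and 1.09 in the RIS map with the 520 kb window. With the 280 kb window it lay 400 kb upstream, at 1.63 in the growing and 1.95 in the RIS map. Bins with values 400 to 880 kb downstream were shallow. Their coverage before balancing, as log2 relative to the median bin, was -3.52 to -1.64, so contact within the domain was measured there at low depth.

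Averaged over libraries, the strongest contacts of the GATA4 promoter bin on either side were the same bins in both conditions. They lay 320 kb upstream, near the left border, and 240 kb downstream, at the starts of the defensin genes DEFB135 and DEFB136. The upstream bin was contacted at 2.95, 3.07 and 3.64 times the expected level in growing libraries and at 3.15 and 3.67 times in RIS libraries. The downstream bin was at 3.23, 3.35 and 2.27 times in growing and 3.36 and 2.95 times in RIS libraries. The groups overlapped at both bins. Limma called 0 of 40 tested contacts of the promoter bin, with 8 at an unadjusted p under 0.05. Over the genome it called 2 of 1958840 pairs of bins (0.000102%), with 226201 at an unadjusted p under 0.05. Voom on the whole contacts recovered from the balanced values, which weights each pair by its depth, called 1.29% of all pairs and also 0 of the 40 promoter contacts. With the replicate number as a block voom called 1.15% of all pairs and 1 of the 40. This was the bin 40 kb upstream, with a log2 change of 0.42 (adjusted p = 0.0478). Of the promoter contacts whose libraries did not overlap between conditions, the 6 with the largest changes are described. That with the bin 240 kb upstream, where the B-cell kinase gene BLK and FAM167A start, rested on 15, 14 and 11 contacts in growing and 12 and 17 in RIS libraries. Its observed over expected value was 0.70, 0.64 and 0.47 in the growing libraries, compared with 0.78 and 0.87 in RIS (limma adjusted p = 0.453). The bin 160 kb upstream stood at 1.27, 1.36 and 1.57 in growing and 2.13 and 1.68 in RIS libraries (adjusted p = 0.387). The other 4 of the 6 held at most 12 contacts per library. Bins with smaller changes also did not overlap, such as that 120 kb upstream, which held 135, 156 and 143 scaled contacts in the growing libraries, compared with 166 and 175 in RIS.

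**Figure D1:**
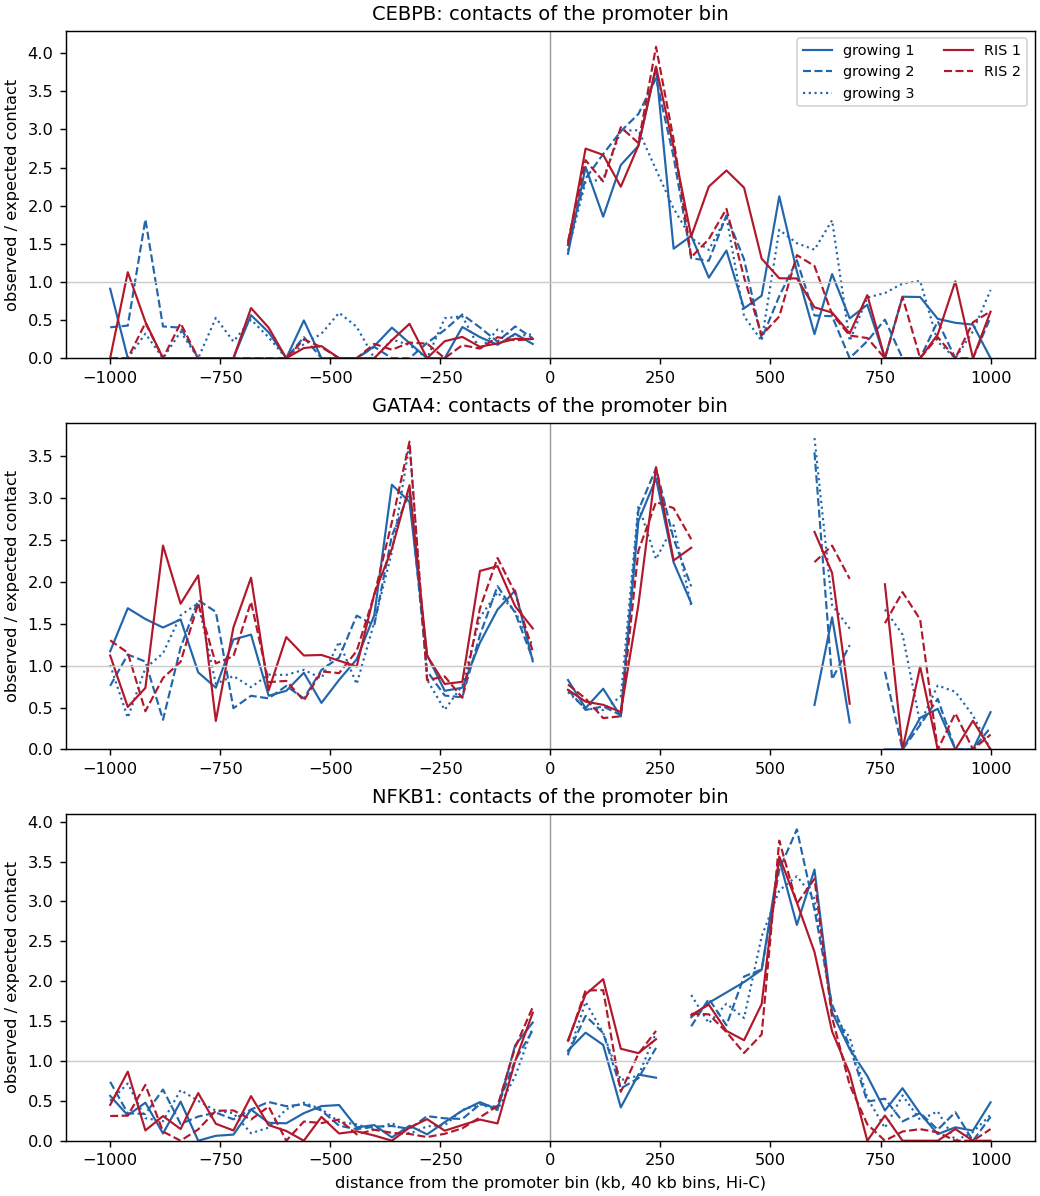
Observed over expected contact of the promoter bins of CEBPB, GATA4 and NFKB1 with each 40 kb bin up to 1 Mb away, by distance from the promoter bin (kb). Blue lines are the 3 growing and red lines the 2 RIS Hi-C libraries, gaps are bins without values, and the grey horizontal line marks the expected level. Averaged over libraries, the profile of CEBPB stays under the expected level at all upstream bins, GATA4 has its highest upstream contact 320 kb away, and NFKB1 has its highest contact 520 kb downstream.

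NFKB1 lies near the left border of a domain bounded by deep minima on both sides. In both RIS libraries contact of the domain with the chromatin beyond its right border was lower, and with that beyond its left border higher, than in every growing library, while the insulation score at the left border bin itself was lower. Some pairs of bins that join the 3′ part of NFKB1 to the far part of the domain held fewer contacts in RIS by voom on recovered contacts, and limma on balanced values called none of them. The domain of growing cells spanned chr4:103280001-104160000, and the start sites of MANBA, UBE2D3, CISD2, SLC9B1, SLC9B2, BDH2 and CENPE lay in it. The zinc transporter gene SLC39A8 (chr4:103172237-103352415) crossed the left border, 120 kb upstream of the promoter bin. The prominence of the borders was 2.37 in growing and 2.60 in RIS maps on the left and 3.06 and 3.57 on the right. The right minimum lay 680 or 720 kb downstream of the promoter bin, and its place did not separate the conditions by library.

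Contact across the right border of the NFKB1 domain, as log2 of observed over expected, was -1.66, -1.76 and -1.53 in growing libraries, against -2.44 and -2.28 in RIS libraries. All RIS values lay below all growing values, with a mean difference of -0.71 (exact permutation p = 0.1, the smallest possible). The difference was -0.74 within libraries with few duplicates and -0.75 within those with many. Across the left border the values were -0.78, -0.73 and -0.72 in growing and -0.47 and -0.64 in RIS libraries. The groups did not overlap here either, with a difference of 0.19 (exact permutation p = 0.1) that was 0.28 where duplicates were few and 0.09 where they were many. These values cover the whole domain against its flank. The insulation score of the left border bin, 120 kb upstream, went the other way, at -1.61, -1.55 and -1.60 in the growing libraries, compared with -1.80 and -1.87 in RIS, again without overlap. Contact within the whole domain was 0.55, 0.57 and 0.57 in the growing libraries, compared with 0.56 and 0.59 in RIS, with overlapping groups (exact permutation p = 0.6).

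The bins of NFKB1 itself as a group made less contact with the rest of the domain in each RIS library. Their mean log2 observed over expected was 0.90, 0.86 and 0.81 in growing libraries, against 0.63 and 0.69 in RIS libraries, with no overlap (difference -0.19, exact permutation p = 0.1). For the promoter bin alone, chr4:103400001-103440000, the values were 0.64, 0.67 and 0.67 in growing and 0.60 and 0.62 in RIS libraries. The difference was thus smaller at the promoter, -0.05, than over the gene as a whole.

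The pairs of bins around NFKB1 were sorted by their place in the domain after the data had been seen. Limma on balanced values called 0 of the 799 pairs in the window, with 123 at an unadjusted p under 0.05 (226201 of 1958840 over the genome). Voom on recovered contacts called 23 (2.88%, against 1.29% over the genome), of which 2 were higher and 21 lower. The share was similar in the windows of CEBPB, with 19 of 707 called (2.69%), 18 of them higher, and of GATA4, with 18 of 732 (2.46%), all higher, so a share above that of the genome was not particular to NFKB1. Balanced values with weights from voom, a fit that called 0.14% of all pairs, gave fewer calls, and less one-sided ones at NFKB1. There were 8 at NFKB1 (3 higher and 5 lower), 1 at CEBPB and 4 at GATA4 (3 higher and 1 lower). The lower call at GATA4 rested on 1, 1 and 3 contacts in growing and 0 and 0 in RIS libraries. Of the higher calls there, 2 rested on 0 contacts in each growing library and at most 3 in a RIS library. At NFKB1, voom called 15 without growing replicate 1 (1.88%, against 0.568% over the genome). It called 23 without growing replicate 2 (2.88% against 0.834%) and 24 without growing replicate 3 (3.00% against 1.08%). With all libraries the median change of the window by voom was -0.11. It was -0.05 without RIS replicate 1 and -0.17 without RIS replicate 2, fits that leave 1 RIS library. Among pairs that join the 3 downstream bins of NFKB1 to the rest of the domain, voom called 14 of 48, all lower in RIS (lower calls were 0.417% of all pairs), 1 from the bin 40 kb after the promoter bin, 6 from the bin at 80 kb and 7 from the bin at 120 kb, which holds the 3′ end of the gene. Their far ends lay 200 to 680 kb downstream of the promoter bin. The median change of the 48 pairs was -0.39 by voom and -0.26 in balanced values, where 34 of the 48 were lower. Balanced values with weights from voom called 4 of the 48, 3 lower and 1 higher, and 3 of these were also called by voom. Coverage before balancing, which recovered contacts keep, was lower in both RIS libraries at bins that carry these calls. As log2 relative to the median bin it was 0.90, 0.87 and 0.89 at 80 kb in the growing libraries, compared with 0.78 and 0.75 in RIS, and 1.03, 1.04 and 0.99 at 120 kb, compared with 0.94 and 0.84. The part of coverage in the voom calls was not tested.

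The pair among these with the lowest adjusted p by voom joined the 3′ end bin of NFKB1 to the bin with the start of UBE2D3, a ubiquitin-conjugating enzyme gene, 320 kb downstream of the promoter bin. Its balanced contact, scaled to the mean depth of the libraries, was 165, 189 and 174 in the growing libraries, compared with 106 and 110 in RIS. No RIS library reached the lowest growing library, and the log2 change was -0.85 by voom (SE 0.09, adjusted p = 1.74e-10) and -0.69 in balanced values (limma adjusted p = 0.222, or 0.000488 with weights from voom). The same end of the gene and the bin with the start of SLC9B1, a sodium/proton exchanger gene, made 168, 184 and 180 scaled contacts in growing and 99.7 and 123 in RIS libraries, again without overlap. That change was -0.81 by voom (adjusted p = 4.94e-08) and -0.67 in balanced values (limma adjusted p = 0.257). Lower contact was not limited to bins of the gene. The neighbouring bins 640 and 680 kb downstream, at the far end of the domain, made 490, 487 and 524 scaled contacts with each other in the growing libraries, compared with 287 and 344 in RIS. Their change was -0.70 by voom (adjusted p = 2.2e-13) and -0.73 in balanced values (limma adjusted p = 0.0897, or 1.55e-06 with weights).

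Contact of the 3′ end of NFKB1 with its own 5′ end was higher in both RIS libraries. The promoter bin and the bin 120 kb downstream, which together hold the ends of the gene, stood at 1.2, 1.35 and 1.35 times the expected contact in growing and at 2.03 and 1.89 times in RIS libraries. The groups did not overlap. The log2 change of 0.51 in balanced values (SE 0.11) had an unadjusted p of 0.00163 and did not pass over all pairs (limma adjusted p = 0.291), and with weights from voom, a fit that called 0.14% of all pairs, it was 0.50 (adjusted p = 0.046). Voom on recovered contacts gave 0.34 (adjusted p = 0.111). With the duplicate class as a block voom gave 0.35 (adjusted p = 0.0483), in a fit that called 2.09% of all pairs. This pair was singled out after its values were seen. The same end bin and the bin 80 kb upstream of the promoter bin went from 81.6, 81.2 and 81.0 to 129 and 118 scaled contacts (log2 change 0.63 in balanced values, limma adjusted p = 0.272, or 0.0465 with weights). Voom on recovered contacts gave 0.48 for it (adjusted p = 0.0622).

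Of the 26 tested contacts of the NFKB1 promoter bin, limma called 0, with 8 at an unadjusted p under 0.05 (226201 of 1958840 over the genome). Voom called 1. This was the bin 480 kb downstream (chr4:103880001-103920000), in which no protein-coding gene starts. It held 67, 81 and 89 contacts in growing and 28 and 32 in RIS libraries, or 2.14, 2.15 and 2.56 times and 1.71 and 1.33 times the expected level. The libraries did not overlap, and the log2 change was -0.93 by voom (SE 0.22, adjusted p = 0.0101) and -0.69 by limma (adjusted p = 0.328). The call was not kept in fits without a RIS library, which leave 1 RIS library and call far fewer pairs over the whole genome. The median change of the 26 contacts by voom was -0.35 with all libraries. It was -0.26 without RIS replicate 1 and -0.37 without RIS replicate 2. Averaged over the libraries of each condition, the strongest contact of the promoter bin lay 520 kb downstream at the start of SLC9B1. It stood at 3.52, 3.40 and 3.14 times in growing and 3.56 and 3.76 times in RIS libraries, where the lower RIS value lay just above the highest growing value. The neighbouring bin, 40 kb upstream, stood at 1.48, 1.39 and 1.42 times in growing and 1.61 and 1.68 times in RIS libraries.

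**Figure D2:**
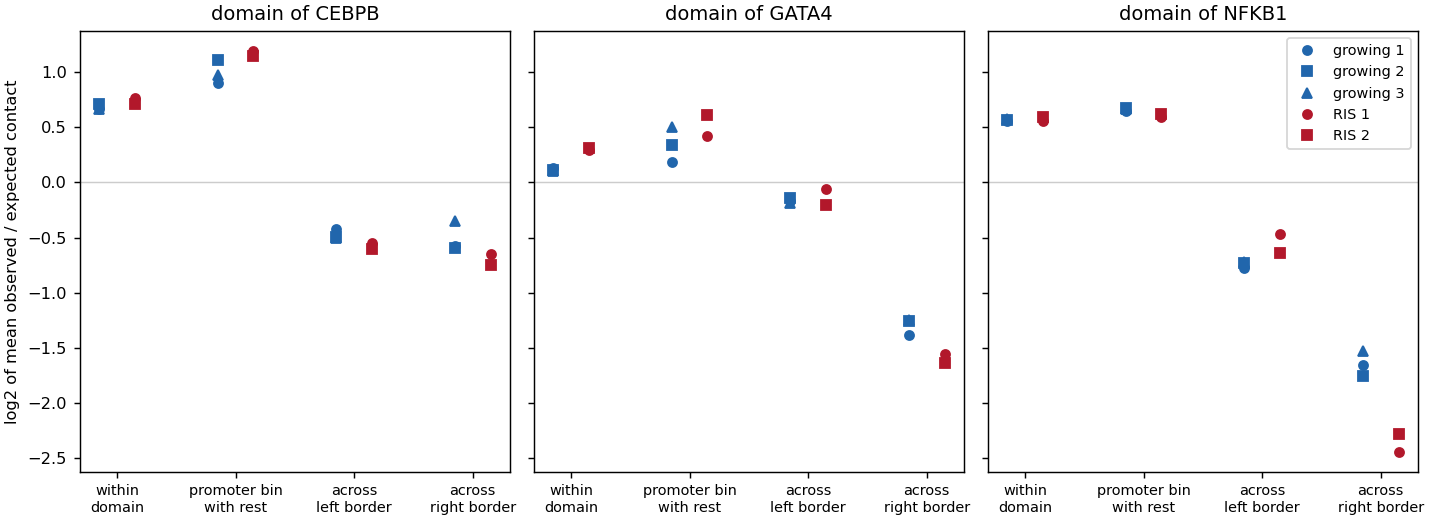
Mean contact in and around the growing-cell domains of CEBPB, GATA4 and NFKB1, as log2 of observed over expected, with a symbol for each Hi-C library (blue growing, red RIS) and the grey line at the expected level. The RIS values across the right border of the NFKB1 domain, -2.44 and -2.28, lie below all growing values, while the values within that domain overlap.

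The insulation score of the NFKB1 promoter bin was -0.35, -0.25 and -0.25 in growing libraries, against -0.04 and -0.14 in RIS libraries. The groups did not overlap, and the rise of 0.19 (SE 0.04, limma adjusted p = 0.00757) was the largest of the 3 genes, at the 91.8th percentile of all bins. It was 0.26 within libraries with few duplicates and 0.11 within those with many, and without RIS replicate 1 it was 0.15 (adjusted p = 0.0688). From recovered contacts it was 0.11 (adjusted p = 0.115). The bin also kept more of its contacts close. Its share of contacts within 200 kb was 36.5%, 36.1% and 36.4% in the growing libraries, compared with 38.6% and 41.8% in RIS, a log2 rise of 0.14 (SE 0.06, limma adjusted p = 0.0403), in a comparison that called 39.5% of all bins and 14.5% higher. The call was lost with the replicate number as a block (0.15, adjusted p = 0.149), with the duplicate class as a block (0.14, adjusted p = 0.0654), from recovered contacts (0.11, adjusted p = 0.118) and without growing replicate 1, 2 or 3 or RIS replicate 2 (adjusted p 0.0926 to 0.16), and without RIS replicate 2 the rise was 0.09.

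Contacts of NFKB1 with other chromosomes were also more frequent in RIS. They made up 9.40%, 8.56% and 9.07% of the contacts of its promoter bin in growing and 12.2% and 11.8% in RIS libraries. The log2 rise of 0.42 (SE 0.08, limma adjusted p = 0.00047) exceeded the replicate spread, but 70.6% of all bins were called in this comparison, 69.7% higher, and the median bin rose by 0.33. Relative to libraries centred on the median bin the rise was 0.06 (adjusted p = 0.608). The compartment score of NFKB1 was 0.78, 0.89 and 0.92 in growing libraries, against 0.96 and 1.02 in RIS libraries, on the A side throughout, and the difference of 0.13 did not pass (limma adjusted p = 0.126). At 200 kb it fell, from 1.54, 1.48 and 1.54 to 1.33 and 1.37 (adjusted p = 0.0239, with 46.7% of bins called). With each library shifted to an equal share of positive bins the difference was -0.08 (adjusted p = 0.331), so its direction changed with the bin size and with the zero of the score.

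**Figure D3:**
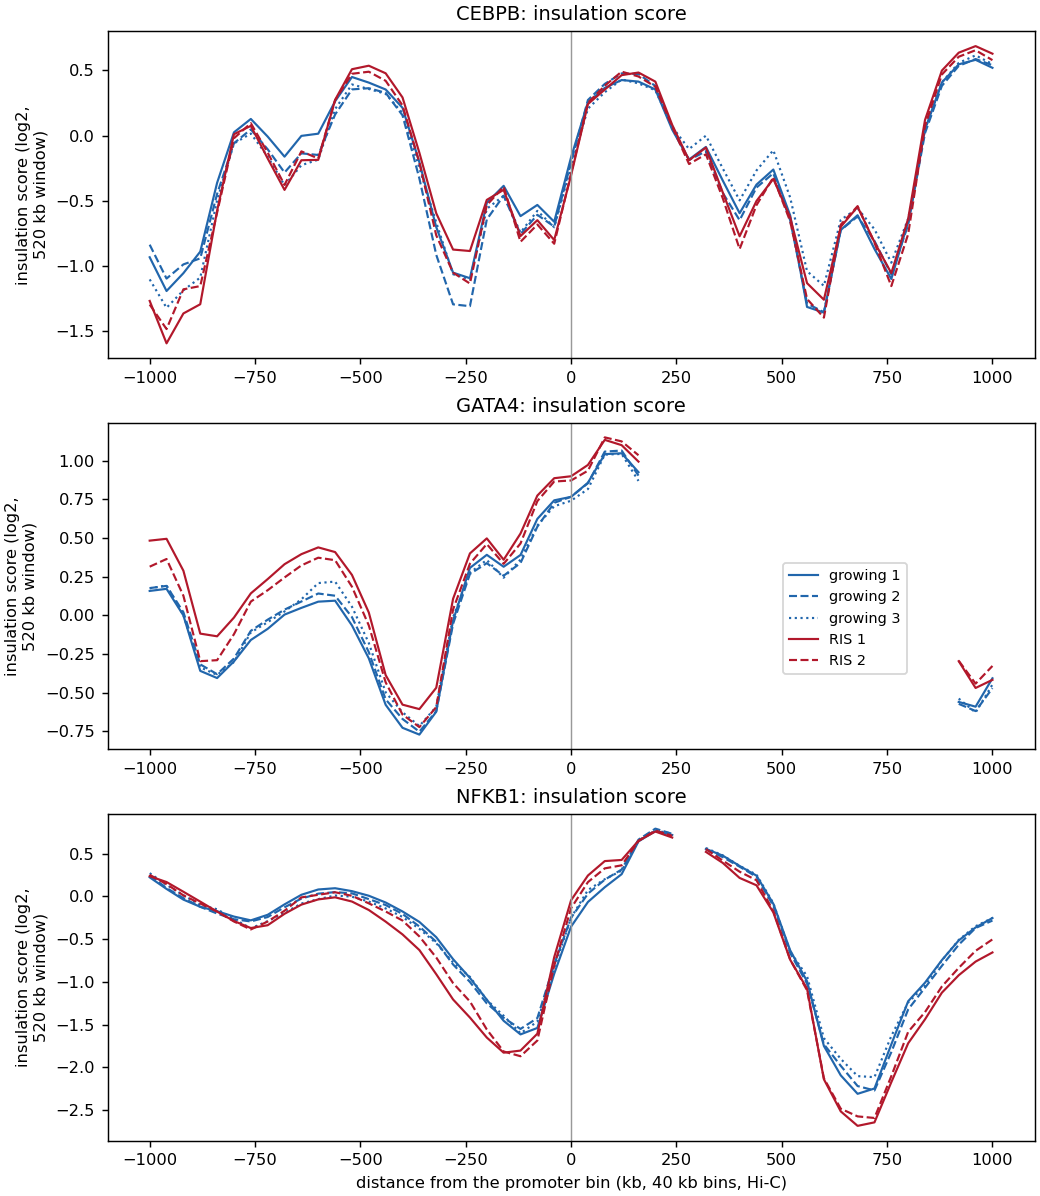
Insulation score (log2, 520 kb window) of the 40 kb bins up to 1 Mb from the promoter bins of CEBPB, GATA4 and NFKB1, for 3 growing (blue) and 2 RIS (red) Hi-C libraries, with gaps where bins held no score. NFKB1 lies between deep minima 120 kb upstream and 680 to 720 kb downstream, GATA4 on a broad rise whose downstream side lacks scores, and CEBPB beside a shallow minimum 40 kb upstream. Deeper minima around CEBPB lie 240 kb upstream and 600 kb downstream.

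CEBPB lies at the edge of its domain, which was delimited here by shallow minima, and its 40 kb promoter bin made contact almost entirely downstream. The HindIII site at the upstream end of the CEBPB fragment lies in the neighbouring bin, so the profile of the promoter bin does not hold that end. In capture Hi-C the 10 kb bin with that end contacted mainly upstream chromatin (values below). Upstream, 0 of 25 bins were contacted above the expected level on average in either condition, while downstream 13 of 25 were in growing and 12 of 25 in RIS cells. The upstream bins held 45, 56 and 70 contacts in growing and 41 and 40 in RIS libraries, and the downstream bins 455, 496 and 557 and then 454 and 485. The log2 ratio of mean downstream to mean upstream contact was 3.09, 2.78 and 2.60 in the growing libraries, compared with 3.18 and 3.34 in RIS. The groups were close to each other but did not overlap. The rise of 0.44 (SE 0.12, limma adjusted p = 0.0431) stood at the 98.9th percentile of all bins, of which 11.3% were called and 5.72% called higher, and it was the only call among the 3 genes in this comparison. GATA4 had ratios of -0.19, -0.10 and -0.16 in growing and -0.43 and -0.16 in RIS libraries (adjusted p = 0.302), and NFKB1 0.79, 0.89 and 0.94 and then 1.00 and 0.84 (adjusted p = 0.728).

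This bin was shallow. It held 723, 740 and 866 recovered contacts with other bins in growing and 674 and 693 in RIS libraries, against 4044, 4683 and 4625 and then 2805 and 3626 at NFKB1. With a prior variance that follows the coverage of each bin, the adjusted p for the ratio of CEBPB was 0.051. With the replicate number as a block the rise was 0.32 (adjusted p = 0.0676), and the call was also lost without growing replicate 2 or 3 or either RIS library (adjusted p 0.0980 to 0.188). Averaged over the promoter bin and the bins beside it, the rise was 0.05 (adjusted p = 0.392).

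The insulation score of CEBPB was -0.17, -0.21 and -0.24 in growing libraries, against -0.31 and -0.29 in RIS libraries. It was the only score of the 3 genes that fell, by 0.10 (SE 0.03, limma adjusted p = 0.0381), with no overlap between groups, in a comparison that called 28.2% of all bins lower. The adjusted p was 0.092 with a prior variance that follows coverage, 0.502 from recovered contacts, where the change was -0.05, and 0.0882 to 0.137 without growing replicate 1 or 2 or either RIS library. The nearest border lay 40 kb upstream, in the bin where PEDS1 and the readthrough gene PEDS1-UBE2V1 start. Its prominence rose from 0.115 (growing map) to 0.411 (RIS map), while that of the next minimum, 120 kb upstream, dropped from 0.269 to 0.127. The insulation score of the bin 120 kb upstream did not rise with this drop. It was -0.62, -0.76 and -0.74 in growing libraries and -0.77 and -0.82 in RIS libraries, lower in both than in every growing library. Insulation scores of the bin 40 kb upstream were closer together, with growing libraries at -0.66, -0.70 and -0.70 and RIS libraries at -0.80 and -0.83. The right border, 400 kb downstream, held the end of PTPN1, a phosphatase gene, and part of RIPOR3, with a prominence of 0.361 in growing and 0.494 in RIS maps. Far more prominent minima lay outside this domain in both maps. That 240 kb upstream had a prominence of 1.57 in growing and 1.48 in RIS maps, and that 600 kb downstream 1.88 and 1.84. Maps pool the libraries of a condition, so these prominences carry no replicate error.

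The domain of CEBPB, chr20:48760001-49240000, had a mean log2 observed over expected contact of 0.66, 0.71 and 0.67 in growing and 0.77 and 0.71 in RIS libraries (exact permutation p = 0.2). The promoter bin with the rest of the domain stood at 0.90, 1.11 and 0.98 in growing and 1.19 and 1.15 in RIS libraries. Both RIS values lay above all growing values, by 0.17 on average (exact permutation p = 0.2). Across the left border contact was -0.42, -0.49 and -0.51 in the growing libraries, compared with -0.55 and -0.60 in RIS (exact permutation p = 0.1). With a border prominence of at least 0.2 the left border moved to 120 kb upstream, the groups overlapped and the difference was -0.02. Across the right border growing libraries gave -0.58, -0.60 and -0.35 and RIS libraries -0.65 and -0.75 (exact permutation p = 0.2), and here the difference of -0.19 was -0.07 within libraries with few and -0.40 within those with many duplicates.

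Among single contacts of the CEBPB promoter bin, limma and voom each called 0 of 25, with 4 and 5 at an unadjusted p under 0.05. Over the genome 226201 and 262205 of 1958840 pairs were under that level. Averaged over libraries, the highest contact was 240 kb downstream (chr20:49040001-49080000) in both conditions, at 3.81, 3.67 and 2.47 times the expected level in growing and 3.82 and 4.08 times in RIS libraries. In growing replicate 3 the bin 200 kb downstream was higher, at 2.99 times. The bin before it, 200 kb downstream, held 155, 176 and 155 scaled contacts in growing and 151 and 150 in RIS libraries (limma adjusted p = 0.714). At 280 kb downstream the values were 1.44, 2.64 and 1.96 times in growing and 2.76 and 2.87 times in RIS libraries (limma adjusted p = 0.428). The bin 40 kb downstream, which takes in enhancers described below, held 415, 451 and 425 scaled contacts in growing and 467 and 505 in RIS libraries, without overlap (limma adjusted p = 0.478). Upstream, the bin at 200 kb had 5, 7 and 8 contacts in growing and 3 and 2 in RIS libraries, without overlap, and the log2 change of -1.03 (SE 0.29, unadjusted p = 0.00701) did not pass over all pairs (limma adjusted p = 0.324).

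In capture Hi-C the 10 kb bins with the ends of the CEBPB fragment faced opposite sides. Each of these bins also holds sequence of the neighbouring fragment, so the values are not those of the CEBPB fragment alone. The bin with the upstream end lies within the 40 kb bin of the left domain border. At 60 to 200 kb, the bin with the downstream end contacted downstream chromatin at log2 observed over expected values of 1.12 and 1.07 in growing and 1.33 and 1.30 in RIS libraries. It contacted upstream chromatin at -1.96 and -2.00 in growing and -2.24 and -2.51 in RIS libraries. Each RIS value lay beyond both growing values on either side. The bin with the upstream end, about as far from the start site, contacted upstream chromatin at 0.84 and 0.85 in growing and 0.79 and 0.78 in RIS libraries, and downstream chromatin at 0.15 and 0.09 in growing and 0.13 and 0.13 in RIS libraries.

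The difference between downstream and upstream contact at 60 to 200 kb, a measure chosen after the data were seen, summarised these sides. For the downstream end the growing libraries gave 3.09 and 3.07 and the RIS libraries 3.57 and 3.81, a difference of 0.61. For the upstream end they gave -0.69 and -0.76, then -0.66 and -0.65, a difference of 0.07. For both ends pooled the values were 0.63 and 0.57, then 0.84 and 0.84. Growing and RIS values did not overlap in any of these (exact permutation p = 0.33, the smallest that 2 libraries against 2 allow), and whether the ends differed from each other in their change was not tested. Nearer by, at 20 to 50 kb, the pooled difference was 1.45 and 1.29 in growing libraries, against 1.35 and 1.53 in RIS libraries, with overlap.

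Downstream of CEBPB the study lists 3 enhancers, which it chose on these same libraries, so their contacts are not independent evidence of a direction. Enhancer 1 (chr20:48837538-48844113) was contacted by the bins with the fragment ends at log2 observed over expected values of 0.64 and 0.63 in growing and 0.47 and 0.60 in RIS libraries. Enhancer 2 (chr20:48861817-48869632) stood at 0.25 and 0.19 in growing and 0.41 and 0.41 in RIS libraries. Enhancer 3 (chr20:48899664-48966550), the longest of them, stood at 0.68 and 0.63 in growing and 0.95 and 0.88 in RIS libraries. Growing and RIS values did not overlap at any enhancer (exact permutation p = 0.33 each), with lower contact in RIS at the nearest and higher contact at both others. Without single libraries the change ranged from -0.16 to -0.03 at enhancer 1, 0.16 to 0.22 at enhancer 2 and 0.22 to 0.29 at enhancer 3. From recovered contacts the change at enhancer 1 was 0.07, the opposite direction, and that at enhancer 3 was 0.06. From the upstream end alone the change at enhancer 2 was -0.13, also the opposite direction.

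Limma called 0 of the 329357 capture pairs tested (0.0%), with 55030 at an unadjusted p under 0.05. At the fragment ends of CEBPB, 26 of 150 pairs had an unadjusted p under 0.05. Voom on recovered contacts called 4.65% of all pairs, 2.62% higher, and 8 of these 150, all higher in RIS. Of the 8, 7 joined the downstream end to bins 30, 50, 60, 80, 110, 120 and 160 kb downstream of the bin with the start site, and 1 joined the upstream end to the bin 270 kb upstream. The number called by voom changed with the library left out. Such fits leave 1 library in a group, and their counts were not read against the share of all pairs. Over the whole captured region of CEBPB (chr20:48000001-49000000) voom called 144 pairs higher and 4 lower of 3149, with a median change of 0.20, whereas the median change of the balanced values was 0.02. With balanced values and the weights of voom, 1.87% of all pairs, 11 of the region and 0 of the fragment ends were called. Recovered contacts keep the efficiency of each bin, which balancing removes. In Hi-C, coverage before balancing at the CEBPB bin was higher in RIS by 0.20 on the log2 scale (adjusted p = 0.311), at the 98.4th percentile of all bins. The groups overlapped, with -2.15, -2.31 and -2.09 in growing and -1.81 and -2.16 in RIS libraries. These are Hi-C and not capture libraries, and the part of coverage in the voom calls was not tested.

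**Figure D4:**
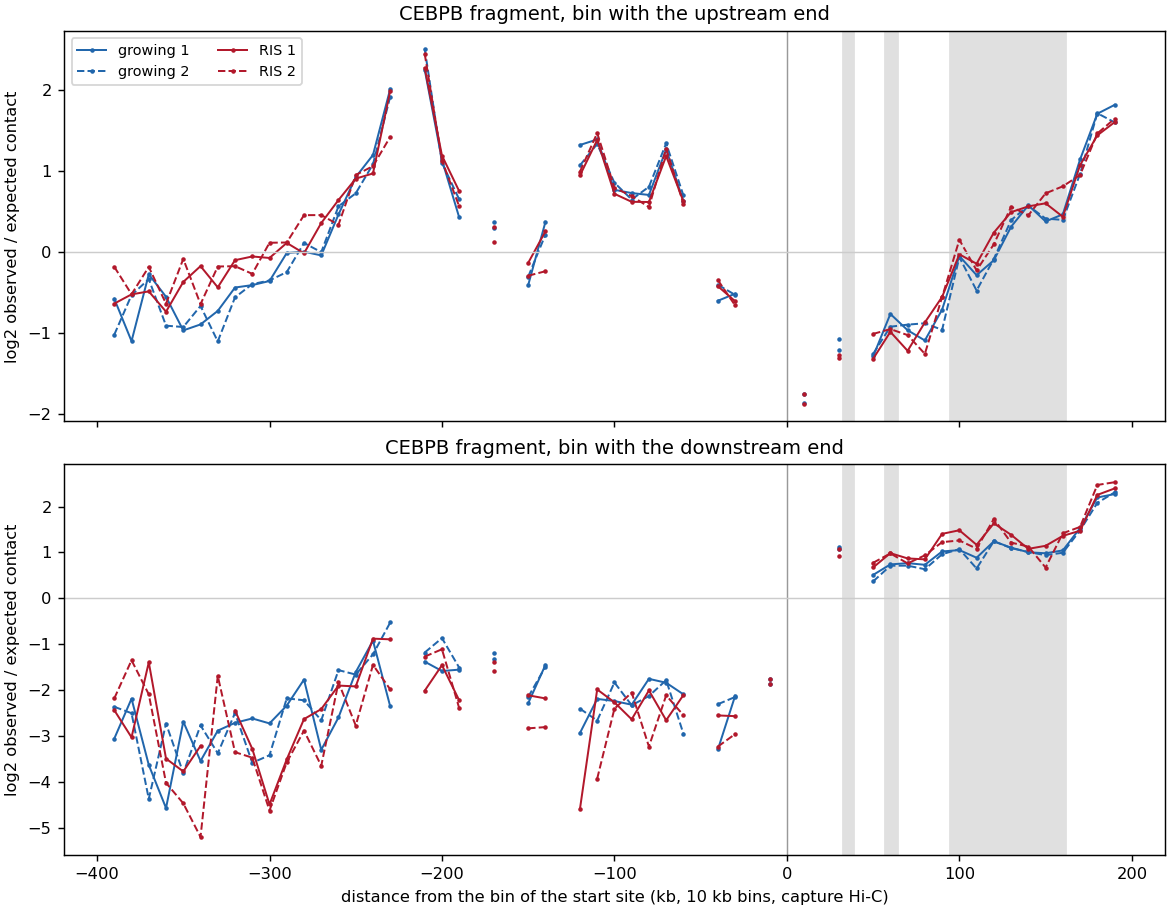
Capture Hi-C contact of the 10 kb bins at the upstream and downstream ends of the CEBPB restriction fragment, as log2 of observed over expected, by distance from the bin with the start site (kb), for 2 growing (blue) and 2 RIS (red) libraries. Grey bands mark the 3 listed enhancers and gaps are bins without values. Contacts of the downstream end lie above the expected level downstream and below it upstream.

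Of the 3 genes, GATA4 had the highest insulation score in every library and CEBPB the lowest in both RIS libraries, while in growing libraries NFKB1 stood lowest. CEBPB made the largest share of its contacts within 200 kb, 50.5%, 56.6% and 52.4% in growing and 52.1% and 58.3% in RIS libraries, against 38.4%, 36.1% and 37.3% and then 39.5% and 39.9% at GATA4. Neither of these shares passed the test between conditions (limma adjusted p = 0.493 and 0.23). Within 1 Mb the share passed at 0 of the 3 genes by limma, in a comparison that called 42.6% of all bins, and GATA4 alone had an unadjusted p under 0.05. At GATA4 this share was 64.8%, 63.1% and 63.1% in the growing libraries, compared with 66.8% and 68.5% in RIS, without overlap (adjusted p = 0.093).

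NFKB1 was the only gene of the 3 whose contacts with other chromosomes passed the test. At CEBPB they made up 17.3%, 12.8% and 13.6% of contacts in growing and 15.3% and 12.5% in RIS libraries, and at GATA4 12.3%, 13.3% and 11.6% and then 11.9% and 11.7%. The groups overlapped at both genes, and their changes, -0.06 and -0.07 on the log2 scale, stood at the 4.12th and 3.78th percentiles of all bins, whose median rose by 0.33. Relative to libraries centred on the median bin the changes were -0.42 at CEBPB (adjusted p = 0.018) and -0.43 at GATA4 (adjusted p = 0.00102), in a fit that called 41.6% of all bins. The compartment score of CEBPB in 120 kb bins was the highest of the 3 genes, at 1.40, 1.33 and 1.2 in growing and 1.25 and 1.17 in RIS libraries (adjusted p = 0.275). With each library shifted to an equal share of positive bins it fell by 0.31 (adjusted p = 0.00437), with 68.5% of bins called. At 200 kb CEBPB stood at 1.49, 1.43 and 1.40 in the growing libraries, compared with 1.30 and 1.30 in RIS, below NFKB1 in each library.

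**Figure D5:**
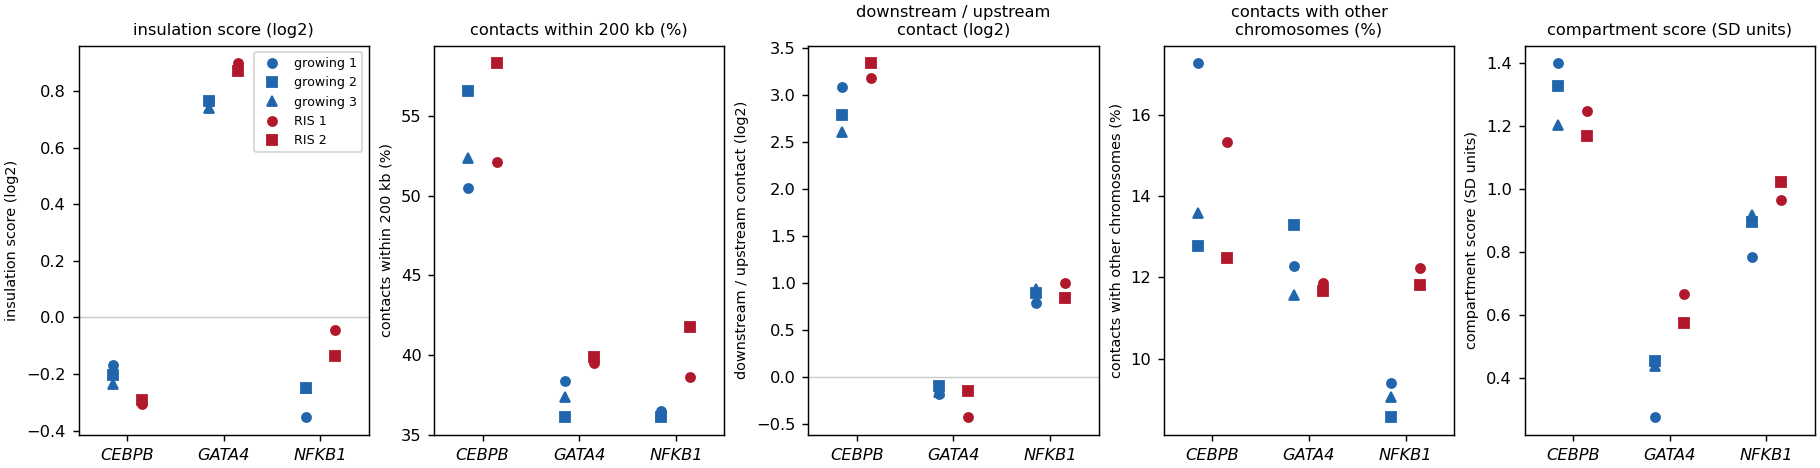
Values of the promoter bins of CEBPB, GATA4 and NFKB1 in each Hi-C library (blue growing, red RIS), from left to right the insulation score, the share of contacts within 200 kb, the log2 ratio of downstream to upstream contact, the share of contacts with other chromosomes and the compartment score. RIS and growing insulation scores do not overlap at any of the 3 genes, and contacts with other chromosomes separate at NFKB1 alone.

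The other genes of the programme were 46 genes listed by role: NF-κB subunits and inhibitors, C/EBP factors, GATA factors and their cofactors, and signalling genes upstream. For the insulation score, 17 of 39 tested bins passed, 4 higher and 13 lower in RIS (43.6%, against 53.3% of all bins and 48.9% of bins with a protein-coding start). The largest falls were those of MAP3K7, the kinase TAK1 that activates the NF-κB pathway, by 0.58 (SE 0.06, limma adjusted p = 0.000295), and of RELA, the activating NF-κB subunit, by 0.49 (SE 0.04, adjusted p = 0.000161). SQSTM1, the autophagy receptor that removes GATA4 in growing cells, fell by 0.35 (adjusted p = 0.000188), and NFKBIE, an inhibitor of NF-κB, by 0.33 (adjusted p = 0.00762). Of the C/EBP factors with CEBPB included, 3 of 7 passed, all lower, and of the GATA list with GATA4 included 5 of 7, 2 higher and 3 lower.

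The share of contacts within 200 kb passed at 18 of 40 other genes (45% against 39.5% of all bins), 17 of them higher, the direction called at 14.5% of all bins. Of 13718 bins with a protein-coding start, 33.4% were called, and 3520 were called higher. The median change was 0.12 on the log2 scale, against -0.01 over all bins and 0.07 over bins with a protein-coding start. The largest rises were at ZFPM1, a cofactor of GATA factors (0.37, limma adjusted p = 2.4e-08), and at CEBPA (0.33, adjusted p = 7.72e-07). The downstream to upstream ratio, called at CEBPB, passed at 5 of 40, 1 higher and 4 lower (12.5% against 11.3% of all bins and 15.7% of bins with a protein-coding start). It passed at 0 of 10 bins of the NF-κB list, NFKB1 included. STAT3, a transcription factor activated by cytokines, had the largest change in this ratio, -0.49 (adjusted p = 0.00617). Contacts with other chromosomes passed at 16 of 40 (40% against 70.6% of all bins), 15 of them higher, with a median change of 0.14 against 0.33 over all bins. The largest rise was at TNFAIP3, an inhibitor of NF-κB signalling (0.68, adjusted p = 4.19e-06).

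Compartment scores passed at 16 of 45 other genes (35.6% against 43.5% of all bins), 7 higher and 9 lower. ZFPM2, a cofactor of GATA4, fell by 0.69 (SE 0.07, limma adjusted p = 0.0011), and SQSTM1 fell by 0.47 (adjusted p = 0.00356). GATA4 rose by 0.23, a rise that depended on the zero of the score, and the list genes were not read with another zero. GATA1, a factor of blood cell development, rose by 0.62 (adjusted p = 0.00416), IKBKG, the regulatory subunit of the IκB kinase complex, by 0.45 (adjusted p = 0.0103), and REL, an NF-κB subunit, by 0.42 (adjusted p = 0.003). GATA1 and IKBKG lie on chromosome X. The score is the first component of the contact correlations, and on X it correlated with gene density at 0.34, 0.35 and 0.34 in growing libraries. The second component reached 0.32, 0.29 and 0.32. In RIS libraries the first stood at 0.44 and 0.44 and the second at 0.09 and 0.10. The score on X may thus not follow the same axis in both conditions. At ZFPM2 the share of contacts within 1 Mb fell as well, by 0.22 (adjusted p = 2.44e-06). That comparison passed at 9 of 40 other genes (22.5% against 42.6% of all bins and 28.8% of bins with a protein-coding start). The counts describe these lists and were not tested against other genes.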

How the data were processed

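Hi-C (5 libraries, 40 kb bins) and capture Hi-C (4 libraries, 10 kb bins) were analysed from the deposited matrices. The authors aligned reads to hg19 with HiC-Pro after FastQC, per the submitters' processing notes and the study's methods, removed duplicates, counted contacts per pair of bins and balanced each matrix by ICE, so the deposited values are a contact signal without units in which each Hi-C library has the same total. Balancing evens out the coverage of bins and hides depth. Whole contacts were therefore recovered by 1 factor per bin, giving whole numbers, within 0.05 of a contact or 0.5% above 10 contacts, at 100% of Hi-C values and at 99.86% in the lowest capture library. Precision is limited by these contacts and by the number of libraries. The study calls the libraries biological replicates. Its alignment summary was read to class libraries by duplicates and for the share of dangling ends.

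Balanced values were scaled to the mean depth, and log2(value + 0.5) of pairs of bins up to 2 Mb apart with a mean of at least 5 was normalised by loess (span 0.3, 4 iterations) and tested with limma 3.58.1 in R 4.3.3, with a prior variance that follows the mean level and Benjamini-Hochberg adjustment over all pairs. Because the deposited values are no counts, voom on recovered contacts was an alternative. Features of each bin were fitted by limma over all bins, and for domain and enhancer values a two-sided exact permutation test over libraries was used. Calls were made at an adjusted p of 0.05. Domains were delimited by minima of the insulation score of the growing map (window 520 kb, prominence 0.1). Start sites were taken from the GRCh37 annotation, whose chromosome lengths equalled those of the bins for 24 of 25 chromosomes. The fits were tested on simulated data. Other software was Python 3.11.15, numpy 2.4.6, scipy 1.17.1, pandas 2.3.3 and matplotlib 3.10.9.

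The 3 genes and all lists were chosen with earlier results of these data known. Named bins are, for each gene, up to 6 with the largest change among promoter contacts called by voom or, with none called, among those whose libraries do not overlap. Named list genes are up to 5 called genes per measure by size of change, and named border genes are those whose bodies cross a domain border. The fragment ends of CEBPB, the prior variance that follows coverage, centring on the median bin, balanced values with the weights of voom, and voom under other settings were chosen after seeing the data.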

Additional observations from a re-analysis of the deposited data

How the results depend on the processing

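The contacts called at the promoters of the 3 genes, 0 by limma, were 1 by voom, also with scaling to the total or a minimum of 1 or 10, 1 with balanced values weighted by voom, 3 by voom with the replicate block and 2 with the duplicate class as a block. At the CEBPB fragment ends the count, 0 by limma, was 8 by voom, 5 with scaling to the total, 8 with a minimum of 1 and 13 with the replicate block. Leaving out single libraries gave 0 to 2 and 0 to 14, with 4 capture pairs by voom without growing replicate 1. Over the genome limma called 789 Hi-C and 110 capture pairs with the same prior variance at all levels.

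Insulation of CEBPB was no longer called with libraries centred on the median bin (-0.0671), a prior variance that follows coverage (-0.10), recovered contacts (-0.0495), 3 bins (-0.0742) or a 280 kb window (-0.11), and stood at -0.0562 within libraries with many duplicates. That of GATA4 was 0.0674 with a 280 kb window and that of NFKB1 0.11 from recovered contacts, 0.26 within few and 0.11 within many duplicates. The ranges without single libraries were -0.112 to -0.0782, 0.11 to 0.14 and 0.15 to 0.24.

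The share of contacts within 1 Mb became a call at GATA4 when centred (0.10), from recovered contacts (0.13) and at the first annotated start (0.12), with 0.0633 and 0.12 within few and many duplicates. At NFKB1 it was 0.0452 within 500 kb, a turn of direction, -0.0792 and 0.0223 within few and many duplicates, and -0.0766 to 0.017 without single libraries. The share within 200 kb became a call at GATA4 from recovered contacts (0.17), 3 bins (0.13) and the first start (0.20). At NFKB1 the call was lost with the replicate block (0.15, adjusted p = 0.149), the duplicate class block (0.14), recovered contacts (0.11) and 3 bins (0.11), with 0.0894 and 0.20 within few and many duplicates and 0.088 to 0.20 without single libraries. At CEBPB this share was 0.15 within many duplicates and -0.0263 to 0.14 without single libraries.

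The downstream to upstream ratio of CEBPB lost its call with the replicate block (0.32, adjusted p = 0.0676), a prior variance that follows coverage (0.44) and 3 bins (0.0517), was 0.74 within many duplicates, and ranged from 0.32 to 0.57 without single libraries. Within few and many duplicates it was -0.29 and 0.0051 at GATA4 and 0.17 and -0.10 at NFKB1, where it ranged from -0.0356 to 0.13. Contacts with other chromosomes, centred on the median bin, were -0.42 at CEBPB and -0.43 at GATA4, both now called, and 0.0563 at NFKB1, no longer called. At GATA4 they were 0.0238 over 3 bins and 0.0833 at the first start, the opposite direction, and 0.0122 within many duplicates. At CEBPB they ranged from -0.21 to 0.0875.

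Compartment scores of CEBPB became calls when centred (-0.31), at 200 kb (-0.15) and with an equal share of positive bins (-0.31). Those of GATA4 lost the call when centred (0.0248) and with an equal share (0.0252), were 0.14 within many duplicates and ranged from 0.18 to 0.28. Those of NFKB1 turned negative when centred (-0.0789), at 200 kb (-0.17) and with an equal share (-0.0785).

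Among domain values, a border prominence of 0.2 gave -0.0187 across the left border of CEBPB and 0.16 within the GATA4 domain. Borders from a 280 kb window gave -0.0316 across the right border of CEBPB, 0.0606 within, 0.18 across the left and 0.11 across the right border of the GATA4 domain, and -0.0224 within the NFKB1 domain. Within few and many duplicates the values were -0.0658 and -0.40 across the right border of CEBPB, 0.17 and 0.21 within the GATA4 domain, and 0.28 and 0.0858 across the left border of NFKB1. Across the left border of GATA4 it was 0.10 within few, and across its right border -0.38 within many duplicates. Without single libraries, GATA4 left ranged from -0.0379 to 0.11, NFKB1 within from -0.0064 to 0.0281 and NFKB1 left from 0.11 to 0.27. For the capture values of CEBPB, recovered contacts gave 0.0658 at enhancer 1 and 0.0607 at enhancer 3. The upstream end alone gave -0.13 at enhancer 2, 0.17 at enhancer 3 and 0.0703 for downstream minus upstream, the downstream end alone 0.26 at enhancer 2 and 0.61 for the difference, and expected values from all captured regions 0.28 at enhancer 2. The cause of these changes was not tested.

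Growing and RIS libraries share only 2 replicate numbers, too few to be taken as pairs from the data. For libraries with the same number, deviations from the group means correlated over all bins at 0.11 and -0.20 for insulation, at 0.11 and 0.12 for the share within 200 kb and at 0.13 and 0.09 for contacts with other chromosomes. Depth limits CEBPB most, and domain values, with 10 assignments of the libraries, cannot reach an exact p below 0.1.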
